A study of Arabidopsis thaliana with 16 samples.

Results

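The oligo(dT) to random-hexamer ratio of a transcript was compared between pollen tubes of the paps1-1 mutant and of wild type in Arabidopsis thaliana. Within each RNA sample, a gene's CPM (its counts scaled to the same total of gene counts in every library) in the oligo(dT) library was divided by its CPM in the random-hexamer library, and the log2 of that ratio was taken. A ratio was measured only where both libraries held at least 1 count of the gene. Genes were retained as members where the ratio was measured in at least 3 of the 4 RNA samples of each genotype, which left 2016 of 33323 genes (6.05%). Of these, 398 were measured in all 8 RNA samples.

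Pollen tubes were grown semi-in vivo, meaning that the tubes grew through a cut pistil before they were collected. Both genotypes were in the Col-0 ecotype, the mutant tubes carried paps1-1, and the labels name no other allele or treatment. PAPS1 was counted in mutant as well as wild-type libraries, and because paps1-1 is a missense allele its transcript level does not check the labels. RNA from each of 8 samples, 4 per genotype, served for a pair of libraries, 1 with oligo(dT) as its sole primer and 1 with random hexamers, and ribosomal RNA was depleted in all 16 libraries. The series title gives the purpose, an estimate of poly(A)-tail length. The labels do not say whether the replicates were separate plants or cultures, and any p-value therefore covers only the spread seen among these RNA samples, part or all of which could be technical.

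PAPS1 is one of the nuclear poly(A) polymerases of Arabidopsis, the enzymes that add the poly(A) tail to cleaved pre-mRNA. Oligo(dT) primes reverse transcription on the tail, whereas random hexamers prime along the whole RNA. A transcript's ratio between the primings therefore serves as a proxy of its tail, although oligo(dT) can also prime on internal runs of A. In pollen, the tube elongates at its tip and depends on large stores of mRNA for wall enzymes, receptors and transporters.

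Gene counts per library ranged from 568602 to 4483949 (paps1-1 oligo(dT)), 711099 to 5294715 (paps1-1 random hexamers), 70006 to 2946040 (WT oligo(dT)) and 628358 to 3959962 (WT random hexamers). The lowest total was that of the WT replicate 3 oligo(dT) library, in which a count of 0 allowed up to 42.9 CPM, against 0.567 to 5.28 CPM in the other 15 libraries. Such limits take in counting error alone, because molecular identifiers were not part of the reads. Counts on the strand opposite to the gene were 34.0% of those assigned to either strand in that library, 19.9% in paps1-1 replicate 4 oligo(dT), 10.6% in WT replicate 4 oligo(dT) and 2.44% to 7.05% elsewhere. VGD1, a marker of pollen tubes, lay between 6428 and 128232 CPM in the 16 libraries, while 10 pistil genes together made up at most 0.0554% of gene counts and were listed at 0 in the WT replicate 3 oligo(dT) library. No sperm or pistil marker was a member.

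Zeros decided how many genes could be followed. Ratios were measured for 11073, 13159, 5111 and 4957 genes in paps1-1 replicates 1 to 4, and for 5783, 5347, 1125 and 4990 genes in WT replicates 1 to 4. WT replicate 3 was the lowest of the 8 and contributed a ratio for 677 of the 2016 members. The number of genes fell from 4052 measured in a single RNA sample to 896 in 7 and 398 in all 8, and 17079 genes had no measured ratio at all. At the edge of the criterion, 1618 members had exactly 3 ratios in at least 1 genotype, and 1722 genes stayed outside with 3 or 4 ratios in one genotype and 2 in the other.

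The centre of the distribution lay close to 0 in every RNA sample. The median log2 ratio over the members was 0.07, 0.12, 0.51 and 0.22 in paps1-1 replicates 1 to 4 and 0.10, 0.36, 0.03 and 0.23 in WT replicates 1 to 4, so the genotypes overlapped. Since CPM fixes each library's total, a shift common to all transcripts of a sample, such as tails shortened throughout, would not appear in these medians. The spread of ratios within a sample differed more. The interquartile range was 2.07, 2.01, 2.57 and 2.84 in paps1-1 and 2.37, 2.74, 4.56 and 2.23 in WT, widest in WT replicate 3.

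**Figure D1:**
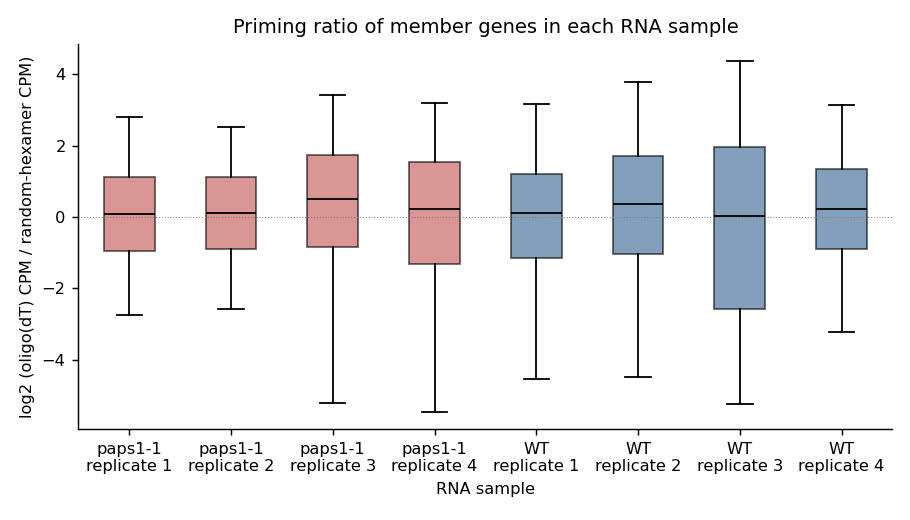
Log2 ratio of oligo(dT) to random-hexamer CPM of the member genes in each RNA sample (boxes, quartiles; centre line, median; whiskers, percentiles 5 and 95; only measured ratios). The medians lie between 0.03 and 0.51, and the box of WT replicate 3, with 677 measured members, is the widest.

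The same genes tended to have high or low ratios in both genotypes. Across the 398 genes measured in all 8 RNA samples, the Pearson correlation of log2 ratios between RNA samples had a median of 0.58 over 6 pairs within paps1-1 (0.35 to 0.88), 0.46 over 6 pairs within WT (0.29 to 0.67) and 0.48 over 16 pairs between genotypes (0.22 to 0.81). Without WT replicate 3, over 1100 genes, the medians were 0.51, 0.51 and 0.51. These correlations are across genes, which are not independent replicates, and they describe pairs of samples that share length and base composition of the same genes.

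Extreme ratios belonged to recognisable transcripts. Among the 398 genes, the highest mean ratio was that of AGP23 (AT3G57690, chromosome 3), which encodes a short arabinogalactan protein of the pollen cell wall. Its log2 ratio was 5.33, 5.25, 5.39 and 4.69 in paps1-1 and 5.995, 4.85, 0.90 and 4.19 in WT. The paps1-1 samples lay close together and WT replicate 3 was far below all others, so the groups overlapped. UBL5, a ubiquitin-like protein, and 4 genes annotated as uncharacterised, as a putative membrane lipoprotein or as methionyl-tRNA synthetase followed. All 6 had coding sequences of 186 to 246 bases.

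At the other end lay RNAs that oligo(dT) hardly captured. The 18S ribosomal RNA (AT3G41768, chromosome 3), an RNA without a stable poly(A) tail, had log2 ratios of -6.70, -6.66, -7.91 and -6.16 in paps1-1 and -6.02, -4.96, -5.90 and -6.88 in WT. The groups overlapped, and the estimate is uncertain because AT2G01010, a near-identical copy, shares its reads. Only RHA2B (AT2G01150), a RING-type ubiquitin ligase of abscisic acid signalling, was lower on average, at -7.27 over the 8 RNA samples. Its random-hexamer CPM was 68668 in WT replicate 3 and 462 to 4504 in the other samples. The random-hexamer library of WT replicate 3 also held the most 18S ribosomal RNA of AT3G41768, at 72503 CPM. Whether the reads counted for RHA2B came from its mRNA was not tested. EXPA4, an expansin that loosens the wall, averaged -4.64 ± 2.74 (SD, n = 4) in paps1-1 and -6.11 ± 2.31 in WT. The difference was smaller than the spread within WT.

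**Figure D2:**
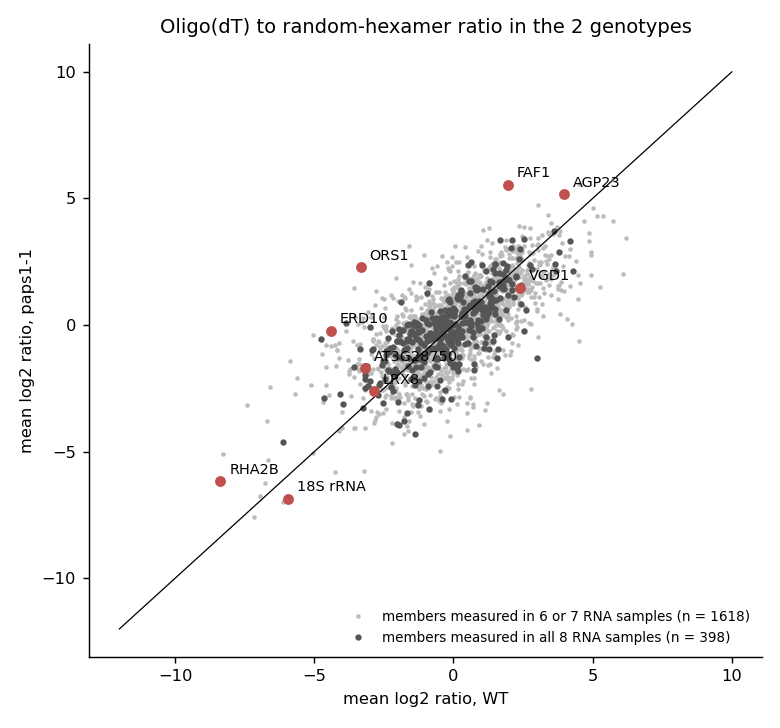
Mean log2 ratio of each of the 2016 member genes in WT (x axis) against paps1-1 (y axis), each mean over the measured RNA samples; the line marks equal ratios. Genes lie along the line from the 18S rRNA and RHA2B to AGP23, and the named genes off it are described with their values in each sample.

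Shorter coding sequences went with higher ratios in both genotypes. Over the 1994 protein-coding members, the Spearman correlation of mean ratio with coding length was -0.58, against -0.29 for GC content of the transcript and -0.11 for its longest run of A. In single RNA samples the correlation with coding length was -0.59, -0.60, -0.39 and -0.37 in paps1-1 and -0.45, -0.43, -0.09 and -0.45 in WT, weakest in WT replicate 3. The difference between genotypes, in contrast, had a correlation of -0.03 with coding length.

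Members were divided by coding length into 3 classes of nearly equal size. In the shortest class (141 to 783 coding bases, 668 genes) the median of the mean log2 ratios was 1.14 in paps1-1 and 1.17 in WT. The middle class (786 to 1464 bases) had medians of 0.04 and 0.14, and the longest class (1467 bases and more, 664 genes) had -0.85 and -0.74. The median difference, paps1-1 minus WT, was -0.04, -0.07 and -0.05 in the 3 classes. Internal runs of A did not separate members in the same way: 42 genes with a run of 15 or more had a median ratio of 0.10, and 1715 genes with runs under 10 had 0.08. All of these are descriptions across genes.

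**Figure D3:**
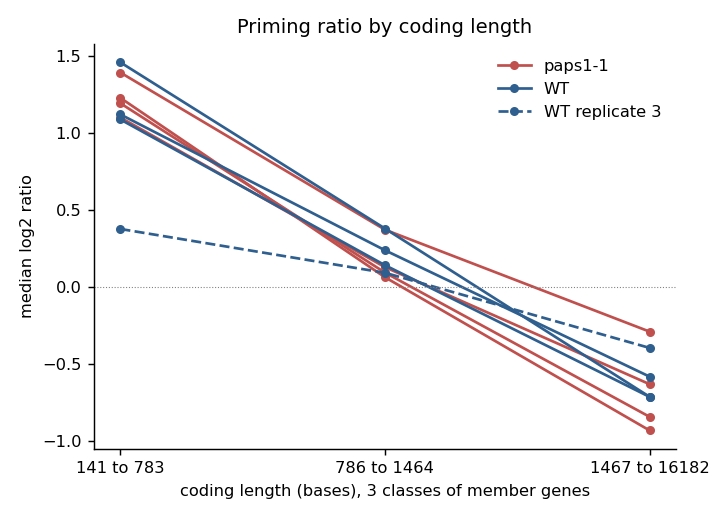
Median log2 ratio (y axis) of member genes in 3 classes of coding length (x axis, bases), with 1 line per RNA sample. All lines fall from short to long genes and the genotypes interleave; WT replicate 3 (dashed) starts lowest, at 0.38.

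No gene's ratio differed between genotypes past the threshold. In the quasi-likelihood test of edgeR, with the RNA sample as a block and a term for the priming difference between genotypes, 0 of 14190 genes tested (0%) had a Benjamini-Hochberg adjusted p under 0.05, and so 0 of the 2016 members, all of which were tested. The smallest adjusted p was 1. At an unadjusted p under 0.05 there were 231 genes (1.63%), of which 6 were members. Other tools gave 0 genes (limma on the 8 ratios, 545 unadjusted) and 23 genes (DESeq2, 971 unadjusted), the latter with 0 members among them.

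The standard errors were large. The median standard error of the log2 difference over the members was 2.45 (quartiles 1.99 and 2.96), so that differences of a few fold in the ratio were not detectable for most genes. On the scale of plain CPM ratios, the median over members of the difference of means was -0.05. It was 0.18 after TMM scaling and -0.10 after scaling by DESeq2 size factors, and so its sign depends on the scaling. For a gene measured in all 8 RNA samples, TMM raised the paps1-1 minus WT difference by 0.37 and DESeq2 size factors changed it by -0.14. In the edgeR fit, the median log2 difference was 0.31 over members and 0.97 over all genes tested, and 59.7% of members against 62.9% of all genes had a positive estimate. Estimates of single genes are to be read against these shifts.

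Ratios of the 4 paps1-1 samples and the 4 WT samples did not overlap in 15 of the 398 genes measured throughout (3.77%), with paps1-1 higher in 9 and lower in 6. Over all 14190 genes tested, with a prior count of 2 in place of missing values, 2.41% did not overlap (1.2% higher and 1.21% lower). That background includes genes with zeros, which members do not, so the shares are only roughly comparable. After TMM scaling the count was 5, of which 1 (RAN1) was among the 15, and after scaling by DESeq2 size factors it was 14, of which 12 were. Without WT replicate 3 it was 81 of 1100 genes (7.36%, 39 higher and 42 lower) against a background of 4.88%. The 15 are among these by construction, because leaving out a sample cannot make separate ranges overlap.

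VGD1 (AT2G47040, chromosome 2), the pectin methylesterase that lets tubes advance through the style, was the abundant gene with a lower ratio in paps1-1. With oligo(dT), paps1-1 replicates 1 to 4 held 58819, 24126, 17517 and 32603 CPM of it, and WT replicates 1 to 4 held 66639, 68573, 128232 and 55462 CPM. With random hexamers, the corresponding CPM were 18566, 7425, 6428 and 15006 for paps1-1, and 17656, 7810, 20063 and 15261 for WT. The oligo(dT) values of all paps1-1 samples except replicate 1 were below every WT value, while the random-hexamer ranges overlapped.

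The log2 ratio of VGD1 was 1.66, 1.70, 1.45 and 1.12 in paps1-1 and 1.92, 3.13, 2.68 and 1.86 in WT, which gives means of 1.48 ± 0.27 and 2.40 ± 0.62 (SD, n = 4). The edgeR difference was -0.54 ± 0.54 (SE, adjusted p = 1). With DESeq2 size factors in the same edgeR test it was -1.05 (adjusted p = 7.68e-09), and without WT replicate 3 it was -0.81 (adjusted p = 0.000449). Leaving out WT replicate 3 together with paps1-1 replicates 3 and 4 turned it to 0.03. In that fit the median was 1.99 over all genes and 0.64 over members. With single RNA samples left out it ranged from -0.97 (without WT replicate 1) to -0.34 (without paps1-1 replicate 3) and -0.19 (without paps1-1 replicate 4). The result for VGD1 thus depended on the scaling and on single RNA samples.

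AT3G28750 (chromosome 3), an abundant transcript annotated as an uncharacterised protein, went the other way. Its log2 ratio was -1.89, -1.55, -1.43 and -1.91 in paps1-1 and -2.09, -2.98, -4.15 and -3.45 in WT. Every paps1-1 sample lay above every WT sample. Its counts in the oligo(dT) libraries ran from 68 (WT replicate 3) to 14072, and in the random-hexamer libraries from 5395 to 95486. The edgeR difference was 1.80 ± 0.72 (unadjusted p = 0.0121, adjusted p = 1). It was 1.34 with DESeq2 size factors (adjusted p = 0.0381) and 1.16 without WT replicate 3 (adjusted p = 0.00908). With the 3 RNA samples left out, an alternative chosen after seeing the data, it was 1.77 (adjusted p = 4.00e-14). That was below the median of 1.99 over all genes in the same fit but above the 0.64 over members. After TMM scaling its ratios overlapped.

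Several other genes with a higher ratio in paps1-1 were set apart mostly by 1 WT sample. LRB1, an adaptor of a ubiquitin ligase in light signalling, had log2 ratios of 0.00 to 0.24 in paps1-1 and -0.65, -0.10, -4.48 and -0.50 in WT. The lowest WT value was that of replicate 3 and rested on 1 count in the oligo(dT) library.

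PERK7, a receptor-like kinase with a proline-rich extracellular part, had -1.27 to -0.34 in paps1-1 and -1.29, -1.34, -5.07 and -1.46 in WT. AHA8, a proton pump of the pollen plasma membrane, had -0.42 to -0.09 and -0.59, -0.61, -3.30 and -0.46. Without WT replicate 3 the difference of means of AHA8 went from 0.98 to 0.29 and that of PERK7 from 1.40 to 0.47. Neither gene passed the edgeR test, with differences of 1.15 ± 0.82 for AHA8 and 1.40 ± 1.20 for PERK7 (adjusted p = 1 for both).

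RAN1, the copper pump that supplies the ethylene receptors, and MBF1C, a transcriptional coactivator of the heat response, did not rest on a single low sample. RAN1 had ratios of -1.25, -1.32, -0.89 and 0.07 in paps1-1 and -2.87, -2.21, -1.83 and -1.79 in WT. Its oligo(dT) counts in WT were 62, 16, 1 and 15. MBF1C had 1.90, 1.47, 2.19 and 1.32 in paps1-1 and 1.03, 0.47, -0.07 and 0.82 in WT, with edgeR differences of 1.503 ± 1.52 for MBF1C and 1.66 ± 2.02 for RAN1 (adjusted p = 1 for both). For AT2G26490, a WD40 repeat protein, WT replicate 2 was the low sample (-6.39, from 15 oligo(dT) counts), and the others ran from -2.74 to -2.43 in WT and from -2.25 to -0.58 in paps1-1.

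Among the genes with a lower ratio in paps1-1, AT2G41905 and LHT7 had SDs within a genotype of 0.42 to 0.50. Their differences of means were -0.91 and -1.08. AT2G41905, a short uncharacterised protein, had ratios of 3.16, 2.95, 3.17 and 2.18 in paps1-1 and 3.28, 3.95, 3.62 and 4.25 in WT (edgeR difference -0.53 ± 0.96, adjusted p = 1). LHT7, an amino acid transporter, had 0.42, 0.17, -0.66 and -0.40 against 0.55, 0.65, 1.24 and 1.43 (edgeR difference -0.71 ± 1.68, adjusted p = 1). In both genes the nearest samples of the genotypes were about as close as samples of 1 genotype to each other.

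KLCR2, a kinesin light chain-related protein, had -1.36, -1.38, -5.04 and -0.93 in paps1-1 and -0.84 to -0.10 in WT. AT3G46220, annotated as a UFM1-protein ligase, had 0.17, -0.93, -4.97 and 0.56 in paps1-1 and 0.70, 2.08, 2.65 and 6.52 in WT, where single libraries held as few as 1 and 8 counts. AT1G79245 had -1.99 to 0.08 in paps1-1 and 0.09 to 1.88 in WT. It is annotated as a transcribed pseudogene and may share reads with related genes, so its estimate is uncertain.

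**Figure D4:**
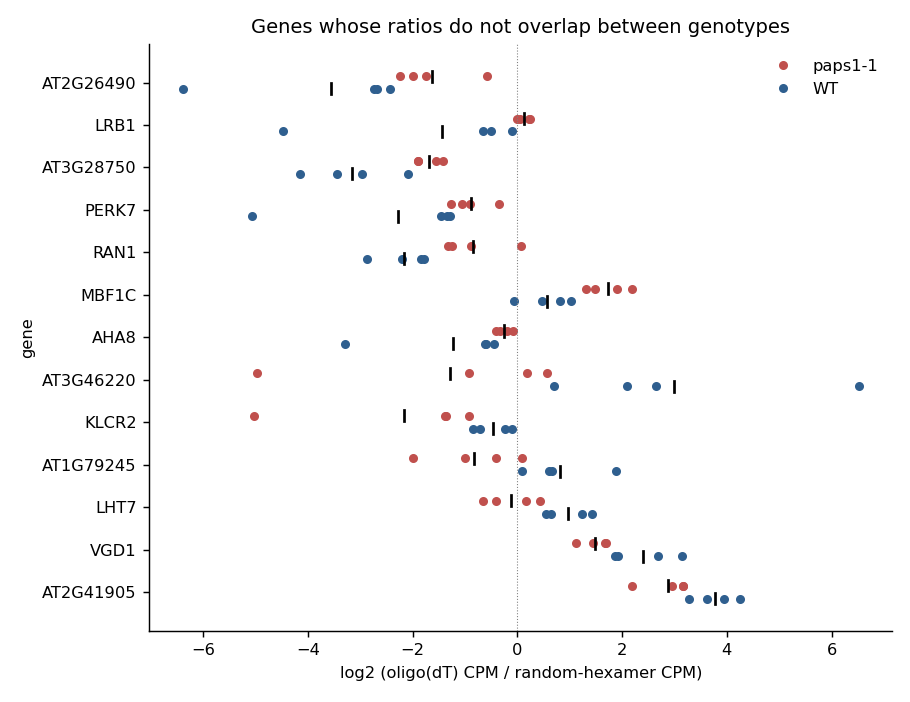
Log2 ratio (x axis) in each of the 4 paps1-1 and 4 WT RNA samples for the named genes (rows) whose ratios did not overlap between genotypes; bars mark means. The upper rows, down to AHA8, are higher in paps1-1 and several hold 1 WT point far to the left, such as LRB1 at -4.48; the lower 6 rows are higher in WT.

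The 6 members with an unadjusted p under 0.05 all had higher ratios in paps1-1, against 205 of 231 over all genes tested (1.44% of 14190). Besides AT3G28750 they were FAF1, ORS1, AT3G07030, ERD10 and RHA2B, which were chosen after their values were seen. FAF1 (AT4G02810), a regulator of meristem size, had ratios of 6.20, 5.12 and 5.32 in 3 paps1-1 samples and 1.56, 1.44 and 2.86 in 3 WT samples. Its random-hexamer libraries held 3, 0, 4 and 7 counts in paps1-1 but 7, 502, 1941 and 37 in WT, and its edgeR difference was 5.01 ± 1.84 (adjusted p = 1), or 4.48 (adjusted p = 0.0381) with DESeq2 size factors. WT replicate 2 had 0 oligo(dT) counts, so this sample gave no ratio.

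ERD10, a dehydrin that protects cells against water loss, had ratios of -0.45, -0.06, -0.02 and -0.34 in paps1-1 and -2.69, -3.88 and -6.67 in WT replicates 1, 2 and 4. Its oligo(dT) counts were 63 to 1565 in paps1-1 and 48, 41, 0 and 2 in WT. ORS1 (AT2G41230), annotated as an ORGAN SIZE-like protein, had 2.65, 1.02, 3.25 and 2.23 against -4.88, -4.66 and -0.46, the first pair of WT values resting on 1 count each. The edgeR differences were 4.33 ± 2.09 for ERD10 and 6.34 ± 2.72 for ORS1 (adjusted p = 1 for both). RHA2B overlapped between genotypes, with ratios of -9.59 to -4.57 and -10.88 to -6.03, and its edgeR difference of 2.84 ± 0.98 (adjusted p = 1) became 2.08 (adjusted p = 0.0381) with DESeq2 size factors. It was 1.55 without WT replicate 1 and 4.33 (adjusted p = 1.01e-06) with the 3 RNA samples left out. In the latter fit the median was 1.99 over all genes and 0.64 over members. Its oligo(dT) counts were 1 in paps1-1 replicate 4, 2 in WT replicate 1 and 1 in WT replicate 2, the samples with its lowest ratios.

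Several other abundant pollen genes had similar ratios in the genotypes. AT3G01270, a pectate lyase, had -1.01, -0.86, -1.01 and -1.11 in paps1-1 and -0.76, -0.86, -0.997 and -0.96 in WT, with means of -0.998 ± 0.11 and -0.89 ± 0.11 (SD, n = 4). LRX8, an extensin that links the wall to peptide signalling, had means of -2.62 ± 0.06 and -2.86 ± 0.25, and BGAL11, a beta-galactosidase, -0.51 ± 0.15 and -0.70 ± 0.30. These means differed by less than the larger of the SDs. AT5G45880, of the Ole e 1 allergen family, averaged 1.47 ± 0.35 and 1.73 ± 0.59, and sks13, a multicopper oxidase-like protein of pollen, -0.32 ± 0.22 and -0.43 ± 1.01.

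Gene lists were described by the ratio of their summed CPM in each RNA sample. For 245 genes listed as pectin enzymes, 34 of them members, the log2 ratio was 0.37, 0.33, 0.09 and 0.03 in paps1-1 and 0.48, 1.05, 1.08 and 0.51 in WT, with no overlap. The list includes genes annotated to the plant invertase/pectin methylesterase inhibitor superfamily, VGD1 and AT2G47050 among them. Whether each product is an enzyme was not tested. Taking out VGD1 gave -0.18, -0.17, -0.41 and -0.37 in paps1-1 and -0.23, 0.12, -1.02 and -0.18 in WT, which overlapped. The separation of this list was thus not seen without VGD1. With VGD1 the genotypes overlapped after TMM scaling but not after scaling by DESeq2 size factors. None of its 110 tested genes passed the edgeR threshold, and the median edgeR difference was 0.93 over these genes and 0.41 over the members.

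Ribosomal proteins stood higher in paps1-1 on the CPM scale. Their summed log2 ratio was 1.17, 1.14, 0.98 and 0.97 in paps1-1 and 0.64, 0.89, 0.44 and 0.81 in WT, without overlap, but the genotypes overlapped after TMM scaling and after scaling by DESeq2 size factors. Of 314 genes 262 were tested and 0 passed, and the 68 members had a median of mean ratios of 1.09 in paps1-1 and 1.08 in WT. AT1G18540, a ribosomal protein L6, had the opposite order, with 1.76 ± 0.42 in paps1-1 and 2.79 ± 0.67 in WT (SD, n = 4 and 3). LOS1, annotated to a family of ribosomal proteins and elongation factors, was also lower in paps1-1, with -1.74 ± 0.76 and -1.21 ± 0.70. AT5G20290, a ribosomal protein S8e, went with the list, with -0.48 ± 0.81 and -1.85 ± 1.90 (SD, n = 4 and 3 for both). The share of photosynthesis genes, which mark green tissue, was 0.132%, 0.357%, 2.32% and 0.149% of oligo(dT) counts in paps1-1 and 0.0582%, 0.183%, 0.0714% and 0.661% in WT; its part in the ribosomal ratio was not tested.

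Heat shock proteins had summed ratios of -0.82, -0.51, -0.66 and -0.83 in paps1-1 and -1.10, -1.36, -1.83 and -0.68 in WT. WT replicate 4 fell among the paps1-1 values. HSP17.4, a small chaperone, averaged 1.38 ± 0.46 and 0.81 ± 0.30, and HSP90.1 averaged -1.95 ± 0.45 and -2.18 ± 0.58 (SD, n = 4). HSP70 went the other way, with -3.45 ± 0.80 in paps1-1 and -2.73 ± 0.15 in WT (SD, n = 3 each). None of 99 tested genes of the list passed the edgeR threshold.

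Signalling at the tube tip showed no separation either. The list of 28 genes had summed ratios of -0.43, -0.38, -0.50 and -0.58 in paps1-1 and -0.54, -0.59, -1.67 and -0.52 in WT, and 22 of its genes were members. RALF19, a peptide ligand of the tip receptors, had 1.45, 1.71, 1.52 and 1.38 in paps1-1 and 1.46, 1.46, -1.41 and 1.62 in WT. BUPS1, a receptor kinase for such peptides, averaged -2.21 ± 0.34 and -3.00 ± 1.01, and CPK17, a calcium-dependent kinase, averaged -0.12 ± 0.42 and -0.63 ± 1.07. The ligand thus had a higher mean ratio than its receptor in both genotypes. Their coding lengths, 333 bases for RALF19 and 2637 for BUPS1, fall in the shortest and longest classes above, which differ in the same direction.

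For pollen ion and sugar transport, which includes AHA8, the summed ratio was -0.43, -0.62, -0.30 and -0.66 in paps1-1 and -0.73, -0.87, -1.23 and -0.63 in WT. The genotypes overlapped on this scale and after TMM scaling, while paps1-1 was higher without overlap after scaling by DESeq2 size factors. ACA9, a calcium pump, averaged -1.45 ± 0.18 in paps1-1 and -1.07 ± 1.64 in WT. STP11, a sugar symporter, averaged -1.32 ± 0.58 and -0.35 ± 1.39, and ADF7, which severs actin filaments, averaged 2.12 ± 0.77 and 1.18 ± 1.11. MYB97, a transcription factor of pollen-tube reception, averaged -0.45 ± 1.59 and -0.39 ± 0.52 (n = 4 and 3). The 7 extensins and wall synthases all had positive edgeR differences, and 0 passed. Their median of 0.60 was below the 0.97 of all genes tested. The median of the 6 members among them, 0.49, was above the 0.31 of all members.

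**Figure D5:**
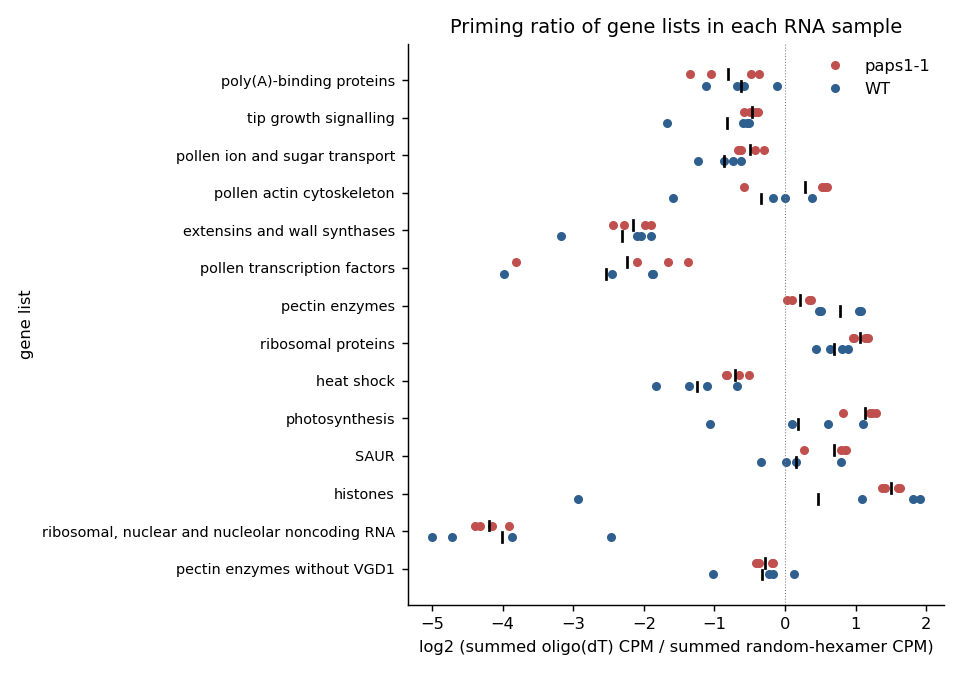
Log2 ratio of summed oligo(dT) CPM to summed random-hexamer CPM (x axis) for gene lists (rows), with 1 point per RNA sample and bars at the means. Pectin enzymes (WT higher) and ribosomal proteins (paps1-1 higher) are the lists without overlap on this scale, and both overlap after TMM scaling. After scaling by DESeq2 size factors the ribosomal proteins overlap and the pectin enzymes do not. Pectin enzymes without VGD1 overlap.

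Poly(A) polymerases and the proteins that bind the tail gave no difference past the threshold. PAPS1 (AT1G17980, chromosome 1) had ratios of -1.59, -0.18, 1.99 and -1.45 in paps1-1 and 1.01, -1.12 and -1.88 in WT replicates 1, 2 and 4, and an edgeR difference of 1.41 ± 2.28 (adjusted p = 1). PAPS2 averaged 1.11 ± 1.10 and 1.05 ± 0.66, and PAPS4 averaged 0.84 ± 0.33 and 0.80 ± 1.15 (SD, n = 4 and 3). PAPS3, the family member without a nuclear location signal, was measured in 2 paps1-1 and 3 WT samples and was not a member. All of these ranges overlapped.

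Of 8 cytoplasmic poly(A)-binding proteins, 3 were members. PAB2 averaged -0.13 ± 0.96 in paps1-1 and 0.16 ± 0.91 in WT. PAB5 had -1.13, -0.96, -6.91 and -1.13 in paps1-1 and averaged -1.24 ± 0.82 in WT. PAB7 had -1.48, 0.21, -6.57 and -5.43 in paps1-1 against -0.80, -0.83, 0.24 and -2.05 in WT. The low values were those of paps1-1 replicate 3 in both genes and of replicate 4 in PAB7, whose oligo(dT) libraries were the shallowest of that genotype.

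Replicate spread set against genotype difference gives the scale of the comparison. Over the 398 genes, the median SD of the log2 ratio was 0.72 among paps1-1 samples and 1.22 among WT samples, and the median absolute difference between genotype means was 0.69. Without WT replicate 3, over 1100 genes, the SDs were 0.92 and 0.88 and the median absolute difference 0.66. A difference of means of more than 1 on the log2 scale occurred in 133 of the 398 genes (33.4%) and in 364 of the 1100 (33.1%). The corresponding edgeR fits, on TMM-scaled counts, had 0 of 14190 and 2 of 16259 genes past the threshold. These 2 are not a subset of the 364: VGD1 is one of them, with a difference of means of -0.82 without WT replicate 3.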

How the data were processed

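Each deposited table held read counts per gene for 1 library; STAR and TAIR10 are named in the submitters' processing notes, with neither the STAR version nor the annotation release. Of the counts the authors deposited, those on the gene's strand were used. The 4 rows naming no gene (55.1% to 99.6% of reads) were left out. RefSeq (TAIR10.1) matched 32835 identifiers and gave names, chromosomes and lengths, with no coordinates printed. No 2 libraries of a group agreed within sampling noise.

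The counts of all 16 libraries entered 1 fit in edgeR 4.0.16 (quasi-likelihood, TMM, filterByExpr with minimum count 10 and minimum total 15, Benjamini-Hochberg, threshold 0.05) in R 4.3.3, blocked by RNA sample, with 6 residual degrees of freedom and a common dispersion of 2.34. The standard error is the estimate divided by the square root of F. The pairing of the libraries of 1 RNA sample comes from the labels' protocol; their deviations from group means correlated at 0.02 to 0.30. Alternatives were DESeq2 1.42.0, limma 3.58.1, other scalings, filters, counts of both strands, and RNA samples left out.

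Members and lists were chosen with earlier results of these data known; the ribosomal, histone, heat shock and noncoding lists were adjusted after the annotation was seen. Named genes are members past the threshold, up to 8 non-overlapping genes in each direction, the 4 PAPS genes, the 3 most abundant members of each list and the 10 most abundant members. Of these, 1 non-overlapping gene is not reported here.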

Additional observations from a re-analysis of the deposited data

Results flagged for a closer look

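In the values below, 1 of 4 samples stood apart from the other 3 of its group by more than Dixon's 95% limit. Chance flags about 1 in 20 groups. The number of groups examined is not given here, so the flags cannot be read as exceeding that rate. Among WT samples, WT replicate 3 was the one apart in most cases. It had 1125 genes with a measured ratio, a rank correlation of ratio with coding length of -0.0896, and log2 ratios of -4.48 for LRB1, -5.07 for PERK7, -3.30 for AHA8, -1.41 for RALF19 and -4.84 for LRX9. WT replicate 2 stood apart at -6.39 for AT2G26490 and at -2.21 for CPK17.

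Among paps1-1 samples, replicate 3 stood apart for KLCR2 (-5.04), PAB5 (-6.91) and BGAL11, where its -0.29 was the highest of the 4. Replicate 4 stood apart for AT1G18540 (1.13), and its oligo(dT) library for the share of gene counts on the opposite strand (19.9%).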

How the results depend on the processing

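The count of 0 genes past the edgeR threshold became 4 with DESeq2 size factors (all members) and 23 with the DESeq2 test (0 members). Without WT replicate 3 and paps1-1 replicates 3 and 4, an alternative chosen after seeing the data, the count was 20 (11 members, all higher in paps1-1). The median in that fit was 1.99 over all genes and 0.64 over members. The count ranged from 0 to 2 with each RNA sample left out, and the 2 came without WT replicate 3. The cause of these changes was not tested.

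The 2016 members became 398 when all 8 RNA samples were required, and 564 to 1872 with each RNA sample left out and all others of that genotype required. Non-overlapping genes, 15 of 398 (3.77%), became 5 after TMM scaling (1.26%) and 20 to 81 with each left out (5.03% to 9.59%). With the 3 RNA samples left out, where 3 of 8 samples are missing, they were 468 of 2177 (21.5%). The share over all genes tested was counted only with all samples (2.41%) and without WT replicate 3 (4.88%). Fewer samples per genotype make non-overlap more frequent by themselves, so the larger counts cannot be read as a rise over 15. The median difference over members of -0.05 became 0.18 after TMM scaling and ranged from -0.10 to 0.04 with each left out.

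Signs turned for AT1G79245 (0.0319), LHT7 (0.0760) and VGD1 (0.0297) with the 3 RNA samples left out, and for PAPS1 (-0.38) and the 18S rRNA (0.15) with no replicate block. Across genotypes, deviations of the ratios of same-numbered samples correlated at 0.16, -0.06, 0.07 and 0.01. Deviations of log2 CPM correlated at only 0.02 to 0.30 even between libraries of the same RNA sample. Low values therefore cannot decide whether replicate numbers pair samples across genotypes, and the labels do not say. A replicate block across genotypes gave 0 genes past the threshold (96 unadjusted), and no replicate block gave 0 (2374 unadjusted). Depth limits the ratio most in WT replicate 3, where 1 count in the oligo(dT) library fixes some ratios.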
